A study of Homo sapiens with 12 samples.

Results

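The ERK feedback genes are genes that ERK signaling switches on and whose products mostly act back on the same pathway. A set of 10 was followed here through a time course of insulin in HepG2, a cell line of human hepatocellular carcinoma. They are 4 dual-specificity phosphatases (DUSP1, DUSP4, DUSP5 and DUSP6), 3 Sprouty genes (SPRY1, SPRY2 and SPRY4), 2 SPRED genes (SPRED1 and SPRED2) and IER3. They were taken by name, 10 of the 26364 named genes in the count table, and 10 of 10 passed the filter on low counts that left 13852 genes for testing. The group was put together with the time course of these same libraries in view, for an early fall set against the late level, so the changes of its members over time are given as a description and support nothing by themselves.

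The RNA-seq libraries were labelled by the time after insulin, 0, 5, 10, 30 and 240 min, and each time had 2 replicates. The treatment text deposited with them gives 3 nM insulin for 5 min for each library, those at 0 min included. The texts of the RNA and the ChIP libraries look exchanged, since the RNA libraries carry a DNA extraction and a DNA library kit, so the times were taken from the titles and the insulin concentration of the time course is not settled by the labels. The study's general methods describe culture in unsupplemented medium, then a physiologic or a pathologic insulin concentration, then an insulin washout before acute stimulation. They do not say which insulin concentration the cells of the RNA-seq had been kept in. The study's methods describe the RNA-seq as a single experiment on independent biological samples, so the tests measure the spread between samples within that experiment. A further library, ChIP-seq with an antibody to the insulin receptor (IR), gave the list of genomic IR peaks used near the end. It is also labelled with 3 nM insulin, and for the same reason the insulin treatment of its cells is not settled by the labels.

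As background, insulin and growth factor receptors activate RAS through the adaptor GRB2 and the exchange factor SOS, and RAS starts the kinase chain of RAF, MEK and ERK. Active ERK phosphorylates transcription factors of the ETS family and others, and among the genes they switch on are brakes on the pathway. DUSP proteins remove phosphate from ERK and other MAP kinases, Sprouty proteins act between the receptor and RAF, and SPRED proteins bring the RAS-inactivating protein neurofibromin to the membrane.

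Promoter sequences from RefSeq, 250 bases before to 50 bases after a start site, were matched for 7 of the 10 genes, with 11 start sites in all. DUSP4, DUSP5 and IER3 were not matched. Those of DUSP6 and SPRY4 are shown because both genes were lower at 10 and 30 min, those of SPRED2 because it was called lower at 240 min alone among the comparisons with 0 min, and that of DUSP1 because its replicates at 10 and at 30 min lay on opposite sides of 0 min. Neither of these differences of DUSP1 was called. Capitals mark matches, on both strands, to 7 short motifs: AP-1 (TGANTCA), the core of the cyclic AMP response element (TGACGT), ETS (CCGGAAG), forkhead (GTAAACA), the GC box (GGGCGG), the CArG box of serum response factor and the TATA box (TATAAA).
DUSP6 promoter, chr12:89352452-89352751 (GRCh38.p14, minus strand): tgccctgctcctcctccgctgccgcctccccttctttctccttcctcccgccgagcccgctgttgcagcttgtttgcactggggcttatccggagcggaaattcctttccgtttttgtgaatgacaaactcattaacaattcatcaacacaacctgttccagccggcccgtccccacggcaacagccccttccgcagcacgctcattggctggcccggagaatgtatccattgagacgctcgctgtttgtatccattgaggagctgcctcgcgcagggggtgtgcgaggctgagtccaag
SPRY4 promoter, chr5:142324198-142324497 (GRCh38.p14, minus strand): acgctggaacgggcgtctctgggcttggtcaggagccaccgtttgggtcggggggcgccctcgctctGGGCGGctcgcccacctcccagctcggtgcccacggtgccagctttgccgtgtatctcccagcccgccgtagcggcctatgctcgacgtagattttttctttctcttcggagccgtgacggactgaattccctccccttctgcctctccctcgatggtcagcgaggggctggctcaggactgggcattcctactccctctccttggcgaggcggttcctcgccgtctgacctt
SPRED2 promoter, chr2:65366729-65367028 (GRCh38.p14, minus strand): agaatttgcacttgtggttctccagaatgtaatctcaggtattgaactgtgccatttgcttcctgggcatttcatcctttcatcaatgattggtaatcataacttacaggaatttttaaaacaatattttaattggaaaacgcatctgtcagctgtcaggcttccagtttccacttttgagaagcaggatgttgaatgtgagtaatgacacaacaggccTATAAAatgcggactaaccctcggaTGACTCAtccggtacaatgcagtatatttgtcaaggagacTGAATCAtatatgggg
SPRED2 promoter, chr2:65432550-65432849 (GRCh38.p14, minus strand): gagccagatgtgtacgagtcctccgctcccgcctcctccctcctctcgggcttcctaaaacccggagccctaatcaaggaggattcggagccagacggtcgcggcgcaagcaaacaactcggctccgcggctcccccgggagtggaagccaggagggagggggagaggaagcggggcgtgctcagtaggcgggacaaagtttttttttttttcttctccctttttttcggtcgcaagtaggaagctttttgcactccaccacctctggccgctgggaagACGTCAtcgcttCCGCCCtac
DUSP1 promoter, chr5:172771146-172771445 (GRCh38.p14, minus strand): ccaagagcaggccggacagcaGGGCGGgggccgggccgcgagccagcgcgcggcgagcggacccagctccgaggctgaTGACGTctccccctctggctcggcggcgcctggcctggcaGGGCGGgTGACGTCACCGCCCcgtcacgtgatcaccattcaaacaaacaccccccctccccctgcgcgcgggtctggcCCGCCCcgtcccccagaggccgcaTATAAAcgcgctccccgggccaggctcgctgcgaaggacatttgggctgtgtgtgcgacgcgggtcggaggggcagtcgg

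The window of DUSP6 held none of the 7 motifs and that of SPRY4 held a GC box alone. In DUSP1 the TATA match began at -30, counted from the start site, 4 GC boxes were found, and the cyclic AMP response element core was found 3 times, from -172, -125 and -123, the last 2 overlapping on opposite strands. The inner start site of SPRED2 had 2 AP-1 matches and a TATA match, and its outer start site had a cyclic AMP response element core and a GC box. Among all 35114 RefSeq promoters of this length, the AP-1 letters were found in 7.71%, the cyclic AMP response element core in 7.98%, ETS in 10.3%, forkhead in 3.42%, the GC box in 45%, the CArG box in 1.29% and the TATA letters in 11.5%. Over the 11 promoters of the feedback genes, the counts were 1 for AP-1, 2 for the cyclic AMP response element core, 1 for ETS (SPRY1), 0 for forkhead, 7 for the GC box, 0 for the CArG box and 2 for the TATA letters. A match describes letters in the window and not a bound site.

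Levels were compared between genes in TPM, which scales for transcript length. By their means over all 10 libraries, SPRED2 (mean 84.5 TPM, range 68.4 to 90.0) and DUSP6 (83.8 TPM, range 64.9 to 102) were the most abundant members, and their ranges overlapped. IER3 followed with 64.4 TPM and the widest range, from 37.0 to 122, and at 240 min its mean of 113 TPM was above those of DUSP6 (86.7) and SPRED2 (68.6). SPRY1 (26.9 TPM), DUSP1 (22.3), SPRY4 (22.3), SPRED1 (18.0) and SPRY2 (14.2) formed a middle group in which SPRY4 ranged from 15.7 to 30.3. DUSP5 stood at 4.75 TPM (3.18 to 6.11) and DUSP4 at 1.12 TPM (0.731 to 1.44), with no overlap between these neighbors.

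**Figure D1:**
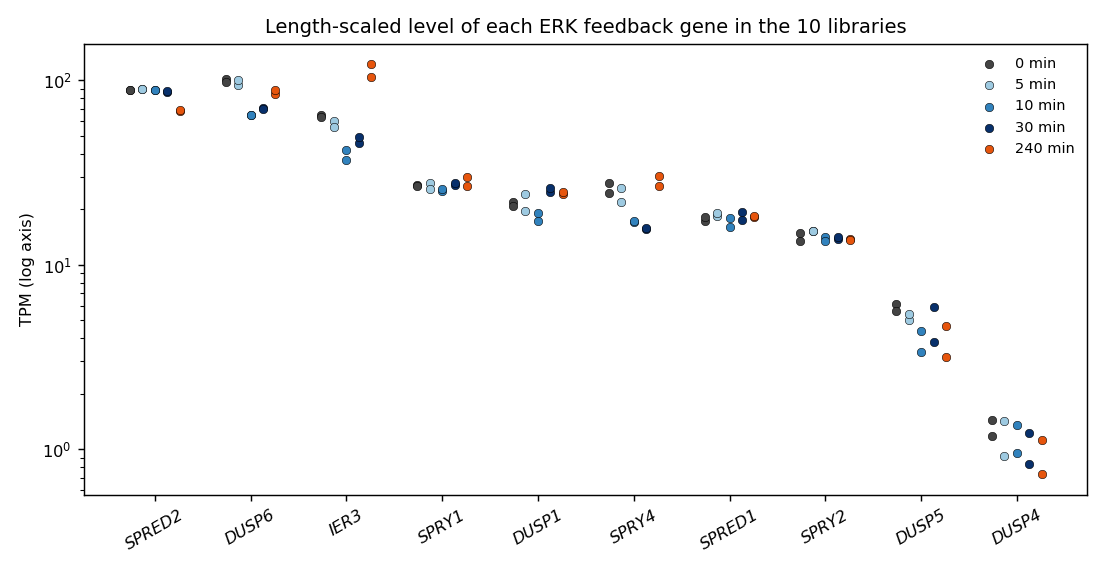
Level of each ERK feedback gene in TPM (log axis) in the 10 libraries, 1 point per library, colored by minutes after insulin, with genes ordered by mean. SPRED2 and DUSP6 lead with means of 84.5 and 83.8 TPM, DUSP4 is lowest at 1.12 TPM, and the points of IER3 spread most, from 37.0 to 122 TPM.

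Changes over time are given in CPM, the reads of a gene scaled to its library's total after TMM normalization. All comparisons with 0 min share the same 2 libraries at 0 min. No library without insulin is labelled for a later time, so insulin and time in culture cannot be told apart. A gene is called changed when its Benjamini-Hochberg adjusted p-value over the 13852 genes, from edgeR's quasi-likelihood test, is under 0.05. In bulk RNA, fewer cells that express a gene and less of its RNA per cell cannot be told apart.

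At 10 min 3 of the 10 feedback genes were lower than at 0 min (DUSP6, SPRY4 and IER3) and 0 were higher, where 0.0938% of all tested genes were lower and 0.0433% higher. The same 3 genes were the members lower at 30 min, where 0.144% of all tested genes were lower. At 5 min no member was called, and 0% of all genes were, with 1976 genes at an unadjusted p under 0.05 and 1 gene called by DESeq2. At 240 min IER3 was higher and DUSP5, DUSP6 and SPRED2 were lower, against a background of 20.6% of genes higher and 20.4% lower. In limma fits on log2(TPM + 1) and log2(TPM + 0.1), DUSP6 was the member called at 10 and 30 min, and SPRY4 and IER3 were not called there. Over the 10 genes the median log2 fold change from 0 min was -0.18 after 10 min, -0.17 after 30 min and -0.04 after 240 min, and over all tested genes it was 0.00 each time.

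**Figure D2:**
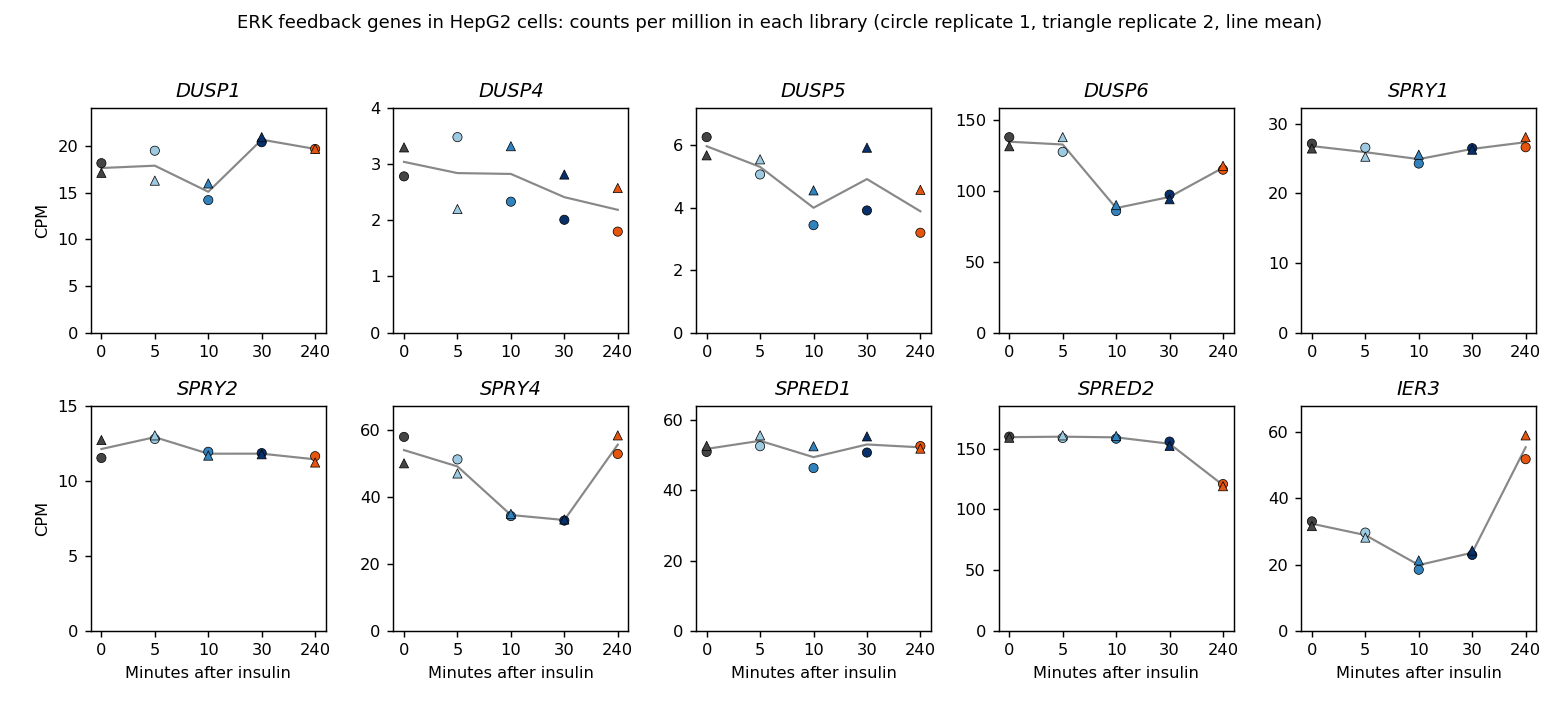
CPM of the 10 ERK feedback genes in each library, by minutes after insulin (evenly spaced, not to scale), with a circle for replicate 1, a triangle for replicate 2 and a line through the means. DUSP6, SPRY4 and IER3 dip at 10 and 30 min and are higher again at 240 min, SPRED2 is level until 30 min and lower at 240 min, and SPRY1, SPRY2 and SPRED1 stay nearly flat.

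DUSP6 encodes a cytoplasmic phosphatase with a preference for ERK and is the most abundant of the 4 phosphatase members. It was measured at 138 and 132 CPM at 0 min, 128 and 138 CPM at 5 min, 85.8 and 90.1 CPM at 10 min, 97.5 and 94.2 CPM at 30 min, and 115 and 118 CPM at 240 min. The replicates at 0 and 5 min overlapped, and those at 10, 30 and 240 min were separate from 0 min and from each other, with the lowest level at 10 min. These values rest on 1940 to 5865 reads per library. The means were 135 ± 4.52 CPM (SD, n = 2) at 0 min and 88.0 ± 3.00 at 10 min, a log2 fold change of -0.62 (SE 0.052). The log2 fold change from 0 min was -0.49 (SE 0.052) at 30 min and -0.21 (SE 0.052) at 240 min, so that at 240 min the mean of 116 CPM was still 13.6% lower than at 0 min by the fit.

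DUSP5, a nuclear phosphatase of ERK, was scarce, with 80 to 253 reads per library. Its 2 replicates gave 6.26 and 5.68 CPM at 0 min, 5.07 and 5.55 CPM at 5 min, 3.44 and 4.56 CPM at 10 min, 3.91 and 5.93 CPM at 30 min, and 3.20 and 4.57 CPM at 240 min. Both replicates at 10 and at 240 min lay below those at 0 min, while at 30 min the higher replicate lay between those at 0 min. Its log2 fold change from 0 min, -0.57 (SE 0.19) at 10 min, was not called, other than in the fit without a filter on low counts. That of -0.63 (SE 0.19) at 240 min was called, but not in the 3 limma fits on TPM. Without replicate 1 of 240 min the value at 240 min was -0.37 and without replicate 1 of 0 min -0.58, and in both cases it was no longer called.

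DUSP1, the broad nuclear MAP kinase phosphatase, had another order of times. It was at 18.1 and 17.1 CPM at 0 min, 19.5 and 16.3 CPM at 5 min, 14.2 and 16.0 CPM at 10 min, 20.4 and 20.9 CPM at 30 min, and 19.7 in both replicates at 240 min. Both replicates were below 0 min at 10 min and above it at 30 and 240 min, and none of these differences was called. Its log2 fold changes were -0.22 (SE 0.092) at 10 min, 0.23 (SE 0.089) at 30 min and 0.17 (SE 0.090) at 240 min. DUSP4, a nuclear phosphatase related to DUSP1, had only 45 to 147 reads per library, and its means went from 3.04 ± 0.365 CPM at 0 min to 2.41 ± 0.571 at 30 min and 2.19 ± 0.550 at 240 min (SD, n = 2 each). Neighboring times overlapped throughout, though both replicates at 240 min (1.80 and 2.58 CPM) lay below both at 0 min (2.78 and 3.30 CPM). The log2 fold change of DUSP4 at 240 min, -0.53 (SE 0.25), was not called at this depth, and it was in the fit without a filter on low counts.

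Of the Sprouty genes, SPRY4 alone was called at any time. It was at 57.9 and 50.0 CPM at 0 min, 51.1 and 47.0 CPM at 5 min, 34.2 and 34.9 CPM at 10 min, 32.9 and 33.2 CPM at 30 min, and 52.8 and 58.3 CPM at 240 min. The libraries at 10 and 30 min lay below all others and close to each other, and those at 240 min overlapped those at 0 min. The log2 fold change from 0 min was -0.63 (SE 0.073) at 10 min, -0.70 (SE 0.073) at 30 min and 0.05 (SE 0.070) at 240 min. These values rest on 684 to 2226 reads per library.

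SPRY1 and SPRY2 varied little, with the highest mean over the lowest at 1.10 for SPRY1 and 1.13 for SPRY2. SPRY1 lay between 24.3 and 28.1 CPM in the 10 libraries and SPRY2 between 11.3 and 13.1 CPM. Their log2 fold changes from 0 min ranged, over 10, 30 and 240 min, from -0.10 to 0.03 for SPRY1 (SE 0.068) and from -0.10 to -0.05 for SPRY2 (SE 0.091 to 0.093).

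SPRED2 and SPRED1 encode closely related membrane inhibitors of RAS and ERK signaling. SPRED2 was at 160 and 159 CPM at 0 min, 159 and 161 CPM at 5 min, 158 and 161 CPM at 10 min, 156 and 152 CPM at 30 min, and 121 and 119 CPM at 240 min. The replicates at 0, 5 and 10 min overlapped, those at 30 min were just below, and those at 240 min were well below all others. Against 0 min it differed by 0.00 (SE 0.044) on the log2 scale at 10 min, by -0.05 (SE 0.044) at 30 min and by -0.41 (SE 0.045) at 240 min. SPRED1 lay between 46.3 and 55.6 CPM in all libraries, with log2 fold changes of -0.07 (SE 0.064) at 10 min and 0.01 (SE 0.065) at 240 min, and neighboring times overlapped throughout.

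IER3, an early response gene whose product is a substrate of ERK and is linked to cell survival, had the largest range, with 482 to 1408 reads per library. It was at 33.0 and 31.6 CPM at 0 min, 29.7 and 28.1 CPM at 5 min, 18.4 and 21.3 CPM at 10 min, 22.9 and 24.2 CPM at 30 min, and 51.8 and 59.0 CPM at 240 min. No 2 times overlapped, and the order from high to low was 240, 0, 5, 30 and 10 min. The log2 fold change from 0 min was -0.70 (SE 0.081) at 10 min, -0.45 (SE 0.080) at 30 min and 0.78 (SE 0.074) at 240 min, the last a level 71.4% higher. At 30 min it was not called without replicate 1 of 0 min (-0.43), replicate 1 of 30 min (-0.41) or replicate 2 of 30 min (-0.49). IER3 lies in the HLA region and was listed on 5 further haplotype sequences, each at 0 TPM in the 10 libraries.

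**Figure D3:**
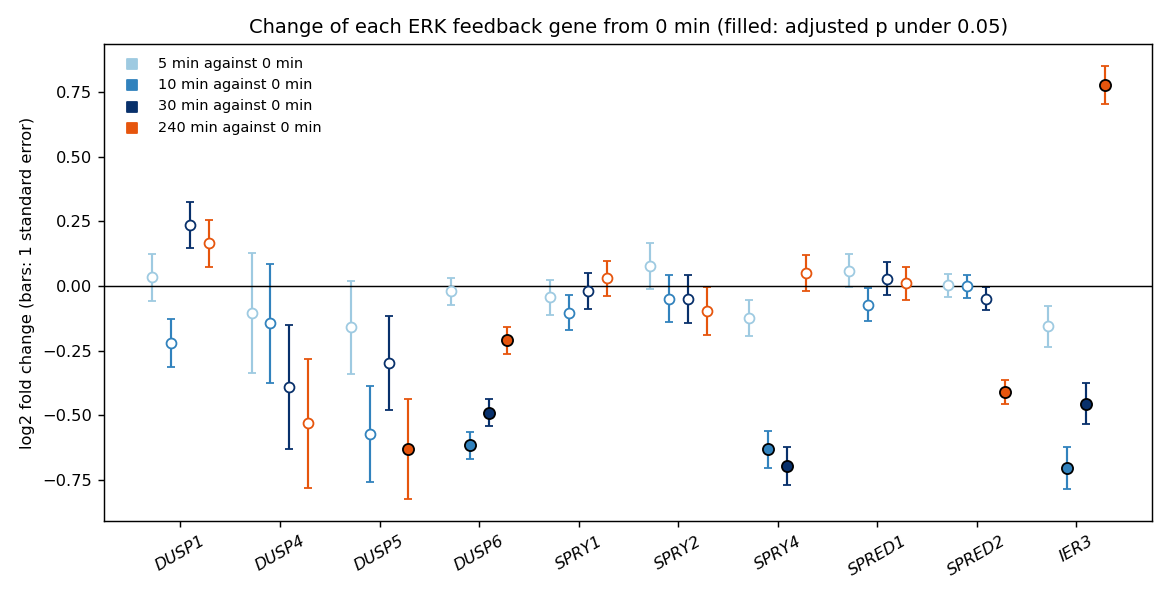
log2 fold change of each ERK feedback gene from 0 min in edgeR's fit, with bars of 1 standard error, by time (color), filled where the adjusted p-value over all tested genes was under 0.05. DUSP6, SPRY4 and IER3 are filled below 0 at 10 and 30 min, IER3 is filled above 0 at 240 min, and DUSP5, DUSP6 and SPRED2 are filled below 0 at 240 min.

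The late level was also set directly against 30 min. From 30 to 240 min DUSP6, SPRY4 and IER3 were higher, 3 of 10 members where 19.8% of all tested genes were higher, and SPRED2 was lower where 18.4% of all were. The log2 fold change was 1.23 (SE 0.078) for IER3, 0.75 (SE 0.075) for SPRY4, 0.28 (SE 0.053) for DUSP6 and -0.36 (SE 0.046) for SPRED2. DUSP5 (-0.34, SE 0.21) was not called, and without replicate 1 of 30 min it was. The other members lay between -0.14 (DUSP4) and 0.05 (SPRY1).

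Scaling by the ERCC spike-ins, RNA meant to be added in a fixed amount, moved all genes together. The study's methods do not describe how much was added or to what. The spike-in share was 1.59% to 2.36% of the counts, highest in replicate 2 of 10 min, and under this scaling the median of all genes was -0.33 at 10 min, -0.13 at 30 min and -0.12 at 240 min on the log2 scale. The ERCC-scaled log2 fold changes of DUSP6 (-0.94), SPRY4 (-0.97) and IER3 (-1.04) at 10 min were each called. Relative to the median of all genes they were -0.62, -0.64 and -0.72, and such relative values were not tested. At 30 min SPRY4 (-0.83) was called, and DUSP6 (-0.62) and IER3 (-0.59) were not. At 240 min IER3 (0.65) and DUSP5 (-0.75) were called, and DUSP6 (-0.33) and SPRED2 (-0.53) were not. From 30 to 240 min IER3 (1.24) and SPRY4 (0.76) were called, and DUSP6 (0.29) and SPRED2 (-0.35) were not.

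Other genes of the pathway were examined as a list of 73 genes in 9 groups by role, of which 68 were tested. The list was chosen with earlier results of these data known, so its counts are a description. At 10 and at 30 min 1 of 68 was called, TRIB1, which was lower, where 0.137% and 0.332% of all tested genes were called, and at 5 min 0 were. At 240 min 34 of 68 were called, 14 higher and 20 lower, where 41% of all tested genes were called. Under ERCC scaling 4 of them, MRAS, BRAF, RRAS and ETV5, stayed called at 240 min. Over the 68 genes the median log2 fold change from 0 min came to -0.02 after 10 min and -0.03 after 30 min.

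TRIB1, a pseudokinase of the Tribbles family that binds MEK and guides proteins to degradation, was at 105 ± 4.27 CPM at 0 min, 76.7 ± 2.82 at 10 min, 78.6 ± 4.71 at 30 min and 124 ± 2.74 at 240 min (SD, n = 2 each). Its log2 fold change from 0 min was -0.45 (SE 0.056) at 10 min, -0.42 (SE 0.056) at 30 min and 0.23 (SE 0.055) at 240 min. Among the members and the list, TRIB1 and IER3 were the genes called lower at 30 min and higher at 240 min. The values of TRIB1 at 10 and 30 min were not called in the limma fits on TPM, nor were those at 30 and 240 min under ERCC scaling.

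By role, the counts at 240 min are a description of small groups, where 20.6% of all tested genes were higher and 20.4% lower. Of the 7 RAF, MEK and ERK genes 5 were lower and 0 higher, and under ERCC scaling BRAF alone of them was called. ARAF (-0.22, SE 0.081), one of the 5, was not called in 5 of 9 alternatives, nor without replicate 1 of 0 min (-0.20), replicate 2 of 0 min (-0.25) or replicate 2 of 240 min (-0.12). BRAF, which encodes a kinase activated by RAS, went from 19.0 ± 0.416 to 12.6 ± 0.243 CPM (SD, n = 2 each; log2 fold change -0.60, SE 0.088). Of the kinases downstream of ERK, 3 of 7 were lower, among them MKNK2 (-0.31, SE 0.055), whose product phosphorylates the cap-binding factor eIF4E. RPS6KA1 (-0.18, SE 0.066), another of the 3, was not called in 5 of 9 alternatives, nor without replicate 1 of 0 min (-0.12), replicate 1 of 240 min (-0.17) or replicate 2 of 240 min (-0.19). RAS proteins and their brakes had 4 higher and 2 lower of 9, with MRAS, a RAS relative, highest at 0.84 (SE 0.067). The 2 lower were RRAS, between -0.72 and -0.51 over 9 alternatives, and NF1 at -0.29 (SE 0.050). NF1 encodes neurofibromin, the partner of SPRED proteins, and was not called under ERCC scaling.

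Other genes that act as brakes or readouts of ERK went both ways at 240 min. Among the other MAP kinase phosphatases DUSP7 rose (0.51, SE 0.11) and DUSP14 (-0.28, SE 0.073) and DUSP16 (-0.22, SE 0.044) fell, and the other 3 tested were not called. The fall of DUSP14 was not called without replicate 2 of 0 min (-0.25). ERRFI1, a feedback inhibitor of the EGF receptor, fell (-0.42, SE 0.055). Of the 9 ETS factors 2 rose and 3 fell, near the shares over all genes. ETV5 (-0.61, SE 0.051) and ETV4 (-0.34, SE 0.056) fell, and ERF, a repressor that ERK drives out of the nucleus, rose (0.63, SE 0.056). Among 11 tested ERK-responsive targets 3 rose, also near the share over all genes, and 0 fell. PHLDA1 was at 0.40 (SE 0.054) and CCND1, which encodes cyclin D1, at 0.34 (SE 0.062). The other was LIF, which lay between 0.42 and 0.61 over 9 alternatives and was not called in 4 of them. With a library left out LIF ranged from 0.25 to 0.79.

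**Figure D4:**
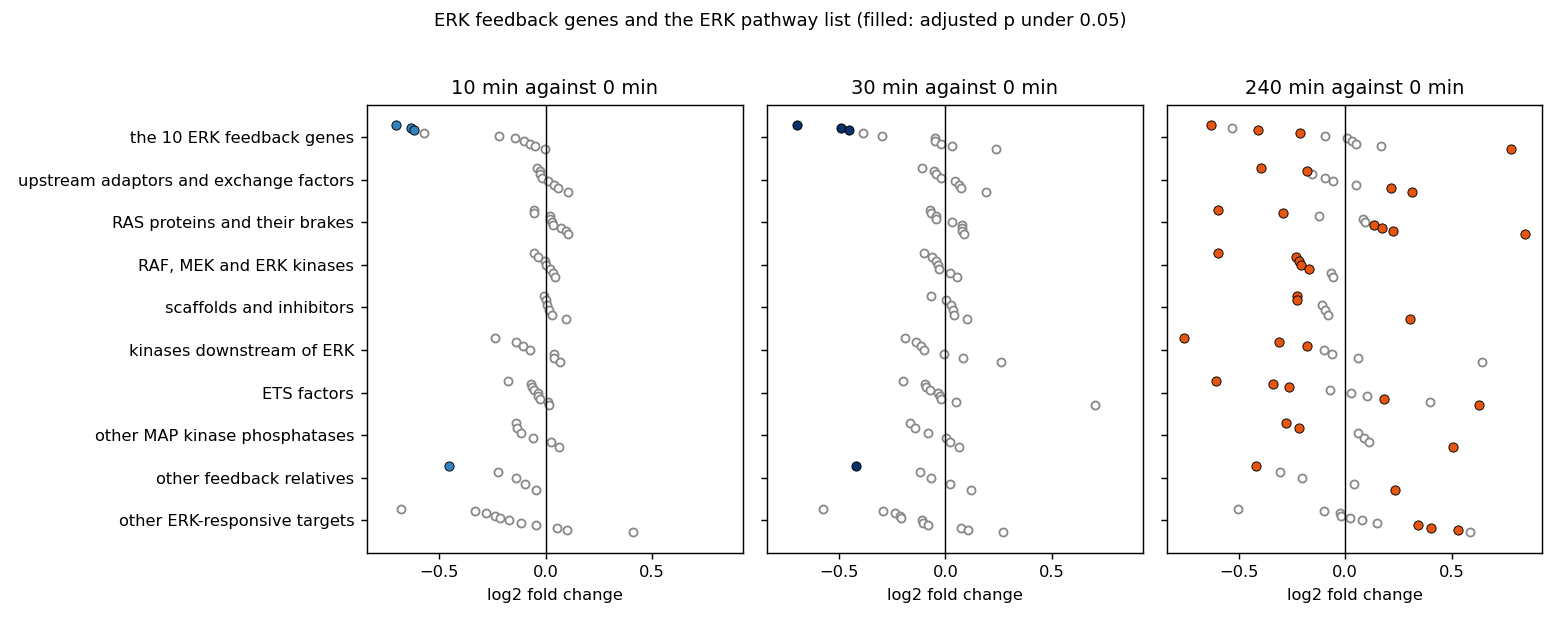
log2 fold change from 0 min at 10, 30 and 240 min for the 10 ERK feedback genes (top line) and the 68 tested genes of the pathway list, grouped by role, 1 point per gene, filled where the adjusted p-value was under 0.05. At 10 and 30 min the filled points are the 3 feedback genes and TRIB1, and at 240 min 34 genes of the list are filled on both sides of 0.

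The genes whose pattern was most like that of the members were ranked by Pearson's r, over the 10 libraries, with the mean centered log2 CPM of the 10 members, among 1585 genes with at least 5 CPM on average and an SD of at least 0.2. The first 5 were EDN1 (r = 0.87), GDF15 (0.86), TRIB1 (0.79), BIRC3 (0.78) and ZSWIM3 (0.76). The 10 points share their 5 times and their library depths, so r is a description. EDN1 encodes the vasoconstrictor peptide endothelin 1, and GDF15 a secreted factor of the TGF-beta family that rises in cell stress. The log2 fold changes of EDN1 were -0.38 at 10 min, -0.50 at 30 min and 0.03 at 240 min, and those of GDF15 -0.41, -0.33 and 0.06. Among the members themselves, DUSP6 (r = 0.87) and SPRY4 (0.84) were nearest to their common mean, of which they are a part, and SPRED2 (-0.17) was farthest.

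The members differ in the structure of their genes, which the choice of the group did not use. In the GENCODE annotation of GRCh37, the canonical transcripts of the 10 genes had a median of 3.5 exons, against 9 for the 11852 tested genes with a coding canonical transcript. IER3 is the most compact, with 2 exons over 1349 bases, a span above that of 0.658% of the tested genes. SPRED1 and SPRED2 are the exceptions in length, with spans of 104414 and 121749 bases, both above the median of 27640. The pentamer ATTTA, found in AU-rich elements of short-lived mRNAs, occurred in the 3′ untranslated region at 8.14 per kb in IER3 (6 copies) and 6.01 in DUSP1 (4 copies), against a median of 1.67 over the tested genes. It occurred 8 times in SPRY4 (2.12 per kb), once in DUSP6 (0.495) and not at all in DUSP5. SPRED1 had the most copies, 24 (4.30 per kb). The density was 3.32 in SPRY1, 2.56 in SPRY2, 1.89 in SPRED2 and 1.51 in DUSP4. The 3 genes lower at 10 min thus had densities on both sides of the median.

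The genomic IR peaks were set beside the genes on hg19. The list holds 1971 peaks from 1 ChIP library, so no replicate check exists, and scores ran from 13 to 14106 with a median of 79. Of the 10 members 2 had a peak within their body extended by 5 kb, DUSP6 and SPRED2, against 15.7% of the 13847 tested genes that could be placed and 9 of 72 placed genes of the pathway list. The peak at DUSP6 (chr12:89747433-89748008) lay 797 bases upstream of the gene as the abundance table gives it (chr12:89741602-89746636, minus strand) and outside its exons and introns. Its score was 31, rank 1654 of 1971, in the lower part of the list. The peak at SPRED2 (chr2:65663051-65663413) lay 3395 bases upstream of the gene (chr2:65537985-65659656, minus strand), with a score of 87 and rank 920, and the deposited annotation assigns it to another start site.

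The middle 300 bases of both peaks are shown because these are the IR peaks nearest to members of the group. They read in the direction of the gene, and capitals mark the same motifs as above.
DUSP6 IR peak, middle 300 bases, chr12:89747571-89747870 (GRCh37, minus strand): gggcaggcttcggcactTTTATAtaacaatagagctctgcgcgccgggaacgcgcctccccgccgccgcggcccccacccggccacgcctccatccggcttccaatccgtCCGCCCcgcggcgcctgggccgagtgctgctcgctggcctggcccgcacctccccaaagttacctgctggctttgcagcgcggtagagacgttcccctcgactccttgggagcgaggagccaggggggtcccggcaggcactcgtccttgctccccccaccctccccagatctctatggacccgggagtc
SPRED2 IR peak, middle 300 bases, chr2:65663083-65663382 (GRCh37, minus strand): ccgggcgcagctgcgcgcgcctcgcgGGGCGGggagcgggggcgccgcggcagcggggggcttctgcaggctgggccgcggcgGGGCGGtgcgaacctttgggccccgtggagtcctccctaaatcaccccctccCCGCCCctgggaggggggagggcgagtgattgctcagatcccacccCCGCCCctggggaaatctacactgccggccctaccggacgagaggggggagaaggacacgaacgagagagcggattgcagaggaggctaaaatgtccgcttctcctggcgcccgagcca

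Over its whole 576 bases the DUSP6 peak held 2 GC boxes, 1 TATA match and 1 ETS match, the last outside the part shown. The 363 bases of the SPRED2 peak held 4 GC boxes and no match to the other 6 motifs. The RefSeq promoter of DUSP6 shown above was found unchanged at chr12:89746229-89746528 of GRCh37, and the center of the peak lay at -1442 bases from its start site, so the peak and that promoter window do not overlap.

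**Figure D5:**
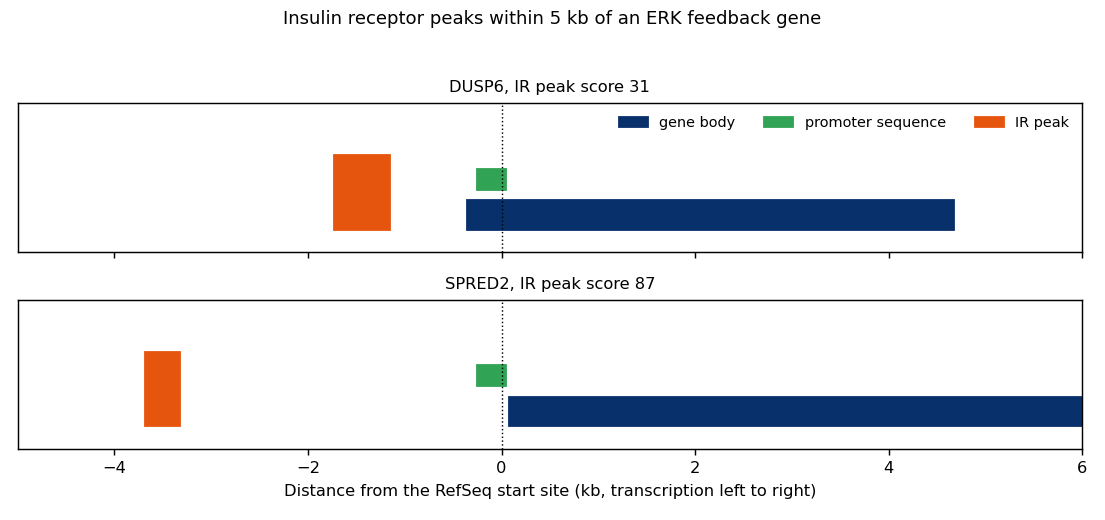
Position of the IR peak (orange), the RefSeq promoter sequence (green) and the gene body (blue, cut off at 6 kb for SPRED2) at DUSP6 and SPRED2, by distance in kb from the outermost RefSeq start site. The center of the peak at DUSP6 lies at -1442 bases and that at SPRED2 at -3499 bases from the start site, with scores of 31 and 87.

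For the other members the nearest peak was farther off. It was 22834 bases from IER3, at a peak assigned to TUBB, 31692 bases from SPRY4, 69861 bases from DUSP4, 87777 bases from DUSP1 and 271650 bases from DUSP5. The nearest peak was 929861 bases from SPRY2, 1308696 bases from SPRY1 and 1803374 bases from SPRED1.

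The libraries held 18347109 to 45005769 reads on genes. The 8 hepatocyte markers summed to 59904 to 73602 CPM, with ALB at 13892 to 20349 CPM, and were lower at 10 min (63662 to 68108 CPM) than at 0 min (69427 to 70113 CPM). Fibroblast markers summed to 10.4 to 15.1 CPM, mostly PDGFRB, and were lowest at 240 min (10.4 to 11.3 CPM), with COL1A2 and DCN at 0 to 1 read in any library. Endothelial markers summed to 2.43 to 3.44 CPM at 10 min and 2.91 to 3.52 at 30 min, below 0 min (3.57 to 3.75 CPM), and were highest at 240 min (4.20 to 4.21 CPM). AFP, a hepatoma marker, was also lower at 10 min (4039 to 4160 CPM) and 30 min (3440 to 4483 CPM) than at 0 min (4800 to 5083 CPM). The 4 immune markers summed to 36.5 to 45.6 CPM, nearly all of it CD68, and PTPRC, which marks all leukocytes, had 0 reads. Their part in the changes at 10, 30 and 240 min was not tested.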

How the data were processed

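RNA-seq of HepG2 cells at 5 times with 2 replicates each, and 1 IR ChIP-seq library, were used. The authors trimmed reads with Trim Galore 0.6.4, aligned them to hg19 with STAR 2.6.1d and counted them per gene with featureCounts 1.6.4 as reverse-stranded; the deposited table holds raw counts, and the StringTie tables the authors deposited hold TPM. Duplicates were marked, and whether they were removed is not given in the sources used here. For ChIP-seq the authors aligned with BWA 0.7.17-r1188, called peaks with MACS2 2.2.7.1 and deposited a HOMER table with a score per peak.

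Counts were fitted here with edgeR 4.0.16 (R 4.3.3; TMM, filterByExpr, quasi-likelihood test, 10 libraries in 1 model, no replicate block). The 92 rows of ERCC spike-ins name no gene, held 1.59% to 2.36% of a library's counts and entered neither library sizes nor tests. Standard errors come from the fold change and its F statistic. Replicates differed beyond sampling noise (chi-square per degree of freedom 2.80 to 6.30). The script was tested on simulated data.

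Genes named are the 10 members, at most the 3 largest called changes per role group of the pathway list and comparison (at least 5 CPM), and the 5 genes most like the members. Members and lists were chosen with earlier results of these data known. IR peaks were assigned to a gene by overlap with its StringTie span extended by 5 kb. Promoters are RefSeq's on GRCh38.p14, placed on GRCh37 by exact match. Alternatives were DESeq2 1.42.0, no filter, RLE, ERCC scaling, only the times compared, a replicate block, limma 3.58.1 on log2(TPM + 1) or log2(TPM + 0.1), each library left out, and other peak rules; those for the 5 like genes were chosen after seeing the data. Python 3.11.15 was used for positions and sequences.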

Additional observations from a re-analysis of the deposited data

Results flagged for a closer look

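IER3 moved in opposite directions at early and late times. Both replicates at 10 min lay below, and both at 240 min above, both replicates at 0 min, and the log2 fold changes from 0 min (-0.70 and 0.78) differed by 1.48. This difference was not tested, since IER3 was chosen for its pattern over time.

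DUSP1 did so between 10 and 30 min, with log2 fold changes from 0 min of -0.22 and 0.23 that differed by 0.46, and both replicates of each time on opposite sides of 0 min. Neither change was called, and their difference was not tested. The value at 10 min ranged from -0.31 to -0.13 with a library left out, and was -0.13 without replicate 1 of 10 min. Replicates that do not overlap those of 0 min were common in the pathway list. They were found in 28 of 68 tested genes of that list at 10 min and in 30 of 68 at 30 min. The list was chosen with earlier results known, and the share over all tested genes is not given here.

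TRIB1 was lower at 30 min and higher at 240 min than at 0 min. The log2 fold changes from 0 min were -0.42 and 0.23, and that from 30 to 240 min was 0.66, with both replicates of 240 min above both of 30 min. The gene was singled out from these same values, so they are a description and no independent test of the difference was made.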

How the results depend on the processing

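Of the 950 values of the 10 members under the alternatives, 873 moved by less than 1 replicate SD and 77 by more, and no called value changed sign. These values include fits that left out a library from neither time compared, where little movement is possible. The SD was each gene's own, so a scarce gene could move further within it. The value of DUSP4 at 5 min ranged from -0.49 to 0.17 with a library left out. The members called were the same under DESeq2, RLE and only the times compared. Without a filter on low counts 4 were called at 10 min, DUSP5 added, and 5 at 240 min, DUSP4 added. In the limma fits on TPM, 1 member was called at 10 min and 1 at 30 min (DUSP6), and 3 at 240 min. Under ERCC scaling 1 member was called at 30 min, 2 at 240 min and 2 from 30 to 240 min. With each library left out, 3 members were called at 10 min, 2 to 3 at 30 min, 3 to 4 at 240 min and 4 to 5 from 30 to 240 min. With the gene extended by 1 kb a peak was found at 1 member, DUSP6, against 14.1% of the placed tested genes. With scores above the median it was at 1 member, SPRED2, against 8.79%. By HOMER's nearest gene it was at 1 member, DUSP6, against 8.58% of all tested genes. With 20 kb peaks were found at 2 members, DUSP6 and SPRED2, against 21.3% of the placed tested genes.

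All genes called at 5 min were 0, and 1 by DESeq2, 144 without a filter, 2 by ERCC scaling, 1 with only the times compared, and 6, 0 and 2 by limma with a TPM pseudocount of 1, a pseudocount of 0.1, and on genes averaging 1 TPM or more. At 10 min they were 19, and 74 without a filter, 40 with only the times compared, and 2, 3 and 1 by limma in that order. At 30 min they were 46, and 160 without a filter, 4 by ERCC scaling, and 11, 4 and 8 by limma. ERCC scaling gave 1059 at 240 min and 917 from 30 to 240 min, in place of 5676 and 5297. Leaving out a library gave 0 to 22 at 5 min, 9 to 24 at 10 min and 18 to 53 at 30 min.

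Pathway list genes called were 1 at 5 min without a filter, 2 at 10 min by DESeq2, without a filter and with only the times compared, and 0 by each limma fit. At 30 min they were 2 by DESeq2, 3 without a filter, 0 by ERCC scaling and each limma fit, and 1 to 2 with a library left out. ERCC scaling gave 4 at 240 min and 5 from 30 to 240 min. The cause of these differences was not tested.

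Replicates share the numbers 1 and 2 across times, and deviations of same-numbered libraries correlated at -0.12 to 0.13. Such values, from 2 replicates per time, cannot exclude that the numbers pair the samples. With a replicate block 1 gene was called at 5 min, 21 at 10 min, 59 at 30 min and 5845 at 240 min, 2 genes of the pathway list were called at 30 min, and the same members were called as without it. With 2 replicates per time and with 45 to 253 reads of DUSP4 and DUSP5 per library, modest changes of these 2 genes cannot be resolved.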
